A study of Mus musculus with 2 samples.

Results

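The genes described here are those of the Bcl2 family and of the p53 and Mdm2 pair: Bcl2, Bcl2l1, Mcl1, Bax, Bak1, Bad, Bid, Bcl2l11, Trp53 and Mdm2. They were taken by gene symbol, and for a repeated symbol the entry of highest mean would have been kept. Of the 10 symbols, 9 had an entry in the table of 12684 genes, none of them repeated, and Bak1 was not analysed here. RNA had been sequenced from endothelial cells (EC) of the mouse aorta-gonad-mesonephros (AGM) at E10.5, where hemogenic endothelium (HE) gives rise to blood stem cells. The bulk EC library came from CD31+CD117-CD45- cells of WT littermates. The GFP-depleted EC library came from CD31+CD117-CD45- cells that were also negative for GFP, sorted from embryos carrying the Runx1+23GFP transgene, in which a Runx1 enhancer active in HE drives GFP. Both samples carry the strain label Runx1+23GFP, and their genotype labels read WT and GFP+, respectively. The results text of the paper instead speaks of a comparison of GFP+ HE with vascular EC. The sorted identities given here are those of the labels, this conflict was not resolved, and each ratio holds only for the libraries as labelled. There was 1 library per group, the number of pooled embryos is not known here, and the effects of embryo genotype and of the GFP gate cannot be told apart. Differences are therefore those between the libraries, without a replicate check, and carry neither a test nor a p-value.

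Cell death through mitochondria is decided by the balance within the Bcl2 family. Pro-survival members (Bcl2, Bcl-xL from Bcl2l1, and Mcl1) hold back the effectors Bax and Bak, which open pores in the outer mitochondrial membrane and let cytochrome c activate caspases. BH3-only members such as Bad, Bid and Bim (from Bcl2l11) relay stress by binding these proteins through the short BH3 helix. The transcription factor p53 (Trp53) induces several pro-apoptotic members after DNA damage, and its target Mdm2 is the ubiquitin ligase that degrades it. In mice, loss of Bcl-xL is lethal in midgestation with death of erythroid and neuronal cells, and Mcl1 is required by blood stem cells.

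The feature that joins 7 of the 9 measured genes is the BH3 core, a leucine followed after 3 residues by a small residue and an aspartate. It is shown here because it is the family trait that the choice by symbol did not use. The coding sequences of GENCODE release M1 were searched for a leucine codon, 3 further codons, a glycine or serine codon and an aspartate codon, followed by a codon for an acidic residue, alanine, valine, serine, glycine, asparagine or methionine. Each of the 7 coding sequences held 1 match, with the leucine at codon 94 in Bcl2, 90 in Bcl2l1, 194 in Mcl1, 63 in Bax, 151 in Bad, 90 in Bid and 150 in Bcl2l11. Serine was admitted after Bad gave no match with glycine alone, so the pattern was fitted to the family and its count is a description. Trp53 and Mdm2, which are not Bcl2 relatives, were not searched. The codons of the leucine and of the 2 fixed residues are in capitals, with 3 codons shown on each side.
Bcl2: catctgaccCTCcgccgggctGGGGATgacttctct
Bcl2l1: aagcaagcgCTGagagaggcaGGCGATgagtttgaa
Mcl1: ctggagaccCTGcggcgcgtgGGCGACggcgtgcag
Bax: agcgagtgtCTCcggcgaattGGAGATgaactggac
Bad: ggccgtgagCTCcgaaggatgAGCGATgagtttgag
Bid: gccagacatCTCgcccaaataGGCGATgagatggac
Bcl2l11: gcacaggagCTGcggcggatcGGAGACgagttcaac
Bad alone had a serine codon (AGC) in place of the glycine codon.

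Levels are given in RPKM, reads scaled to gene length and library depth. RPKM adjusts for neither GC content nor amplification, so comparisons between genes are approximate. The sums, shares, orders and level ratios of genes below were not corrected for GC content. Of the 9 genes, Bcl2l1 was higher in bulk EC, Mcl1 and Bid were higher in GFP-depleted EC, and 6 stayed within 1.5 fold, the threshold of the study. Over all genes, 23.6% were higher in bulk EC against 15.3% in GFP-depleted EC by the same rule, so counts of 1 and 2 among 9 genes are near the background. The median log2 ratio (GFP-depleted EC over bulk EC, after 0.3 was added to both values) was 0.16 over the 9 genes and -0.02 over all genes. The pro-survival genes thus went in opposite directions, and the single effector, Bax, was nearly equal as deposited but 1.78-fold higher in GFP-depleted EC once the trend of the ratio on GC content was subtracted.

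**Figure D1:**
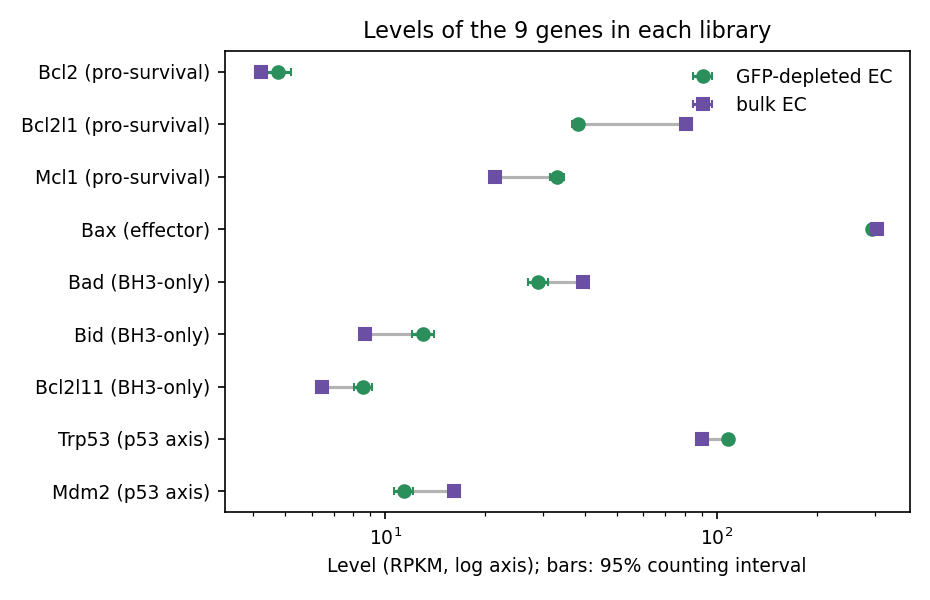
Level of each of the 9 genes (RPKM, log axis) in the GFP-depleted EC library (circles) and the bulk EC library (squares), with 95% exact Poisson counting intervals and a grey line joining the libraries. Bax was highest and Bcl2 lowest in both libraries, and the longest line is that of Bcl2l1.

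Both libraries were deep enough to measure each of these genes. The step size of the values gave about 14631000 reads for GFP-depleted EC against 109790000 for bulk EC. The 9 genes then held between 500 and 6411 reads in GFP-depleted EC and between 3324 and 44841 in bulk EC. The intervals below are exact 95% intervals on these approximate read numbers. They reflect counting alone, because amplified reads are not independent molecules, and say nothing of the spread between embryos. The endothelial markers Cdh5 (81.5 RPKM in GFP-depleted EC against 72.9 in bulk EC) and Pecam1 (153.9 and 154.5) were abundant in both libraries. Kit, which encodes CD117, was at 13.3 and 10.7 RPKM, above the median gene of each library (7.22 and 7.85), so the CD117- gate was not visible in its RNA level. Runx1, the gene of that enhancer, was low in both (0.62 and 0.66), so the depletion was not visible in its own level. Markers of blood cells were present in both libraries and higher in bulk EC. This held for 10 of 11 megakaryocyte genes (summed level 501.6 RPKM in GFP-depleted EC against 1671 in bulk EC), 9 of 10 erythroid genes (536.7 and 1014) and 4 of 5 myeloid genes (13.5 and 35.9). The megakaryocyte sum is dominated by the 1 exception in GFP-depleted EC, Clec1b (404.0 and 393.6 RPKM), and in bulk EC by Pf4 (70.3 and 1112). Globins dominate the erythroid sum in both libraries, namely Hbb-y (269.8 and 543.7), Hba-x (150.1 and 260.3) and Hbb-bh1 (82.8 and 108.2). Hbb-bh1 is the 1 erythroid exception. Gp6 and Lyz2 were listed at 0 in GFP-depleted EC, and no list gene was at 0 in bulk EC. The blood markers Ptprc, Csf1r, Mpo and Klf1 were not analysed here. Of 15 genes of the endothelium at large, 4 (26.7%) were higher in bulk EC against 0 in GFP-depleted EC, with summed levels of 2611 and 2878. The share in bulk EC is near the 23.6% of all genes. The median log2 ratio of these 15 genes was -0.24, and -0.03 once the trend on GC content was subtracted. Of 6 mesenchyme genes, 5 were higher in bulk EC against 1 in GFP-depleted EC (15.8 and 31.6).

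Among the pro-survival genes, Bcl2l1, which encodes Bcl-xL, differed most. Bcl2l1 (ENSMUSG00000007659, mm9 chromosome 2, 152593052 to 152657464, minus strand) was at 38.05 RPKM in GFP-depleted EC against 80.6 in bulk EC. The level was 2.12-fold higher in bulk EC (interval 2.04 to 2.21), from about 2635 and 41902 reads. The whole interval lay past 1.5 fold. Its absolute log2 ratio of 1.08 was larger than that of 85.4% of all genes (percentile of the table), so the gene did not lie at the extreme of the table. After the trend of the log2 ratio on GC content was subtracted, it was 1.87-fold higher in bulk EC. The table gives 1 value per gene and does not separate the long, anti-apoptotic from the short, pro-apoptotic transcript. The erythroid and megakaryocyte markers named above differed in the same direction, and their part in the Bcl2l1 difference was not tested. In such bulk samples, fewer cells of a type and less RNA per cell cannot be told apart. The 3 genes nearest to Bcl2l1 by level in the 2 libraries (Euclidean distance of log2 values) were Rab4b (36.9 and 81.7 RPKM, distance 0.047), Trappc5 (39.1 and 77.6, distance 0.068) and Psmg1 (36.5 and 84.5, distance 0.091), and with 2 libraries such nearness is a description only.

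Mcl1, a short-lived pro-survival protein, went the other way. Mcl1 (ENSMUSG00000038612, chromosome 3, 95462779 to 95467099, plus strand) was at 32.9 RPKM in GFP-depleted EC against 21.4 in bulk EC. It was 1.54-fold higher in GFP-depleted EC (interval 1.46 to 1.62), so that the lower bound lay under the threshold of 1.5. After GC correction it was 1.51-fold higher. Mcl1 is also an early response gene, and immediate early genes as a list lay in the other direction. Of these 17, 11 (64.7%, against 23.6% of all genes) were higher in bulk EC and 0 (against 15.3%) in GFP-depleted EC. Their summed level was 297.5 RPKM in GFP-depleted EC against 517.4 in bulk EC. Their median log2 ratio was -0.93, and -0.38 after GC correction over the 16 with a GC value. The Mcl1 transcript has 3 partial copies elsewhere in mm9, which align over 39.2% to 50.3% of its length at 78.6% to 89.1% identity. Whether reads were exchanged with such copies cannot be seen from 1 value per gene, and was not tested.

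Bcl2 itself was the lowest of the 9 genes. Bcl2 (ENSMUSG00000057329, chromosome 1, 108434755 to 108610851, minus strand) was at 4.75 RPKM in GFP-depleted EC against 4.21 in bulk EC. The ratio of 1.13 toward GFP-depleted EC (interval 1.03 to 1.24) was within the threshold, and the GC-corrected ratio was 1.01. Of its exonic bases, 7.76% lie under other genes, and it is not known here whether reads were counted by strand.

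The make-up of the pro-survival set thus differed between the libraries. Bcl2l1 contributed 50.3% of the summed pro-survival level in GFP-depleted EC against 75.9% in bulk EC. Mcl1 contributed 43.5% and 20.2%, and Bcl2 6.28% and 3.96%, in the same order. The sum was 75.7 RPKM in GFP-depleted EC against 106.3 in bulk EC, a 1.40-fold difference. The level of Bcl2l1 was 1.16 times that of Mcl1 in GFP-depleted EC and 3.76 times in bulk EC. These shares rest on 1 library each and on levels without GC correction, and RNA levels do not give protein amounts.

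**Figure D2:**
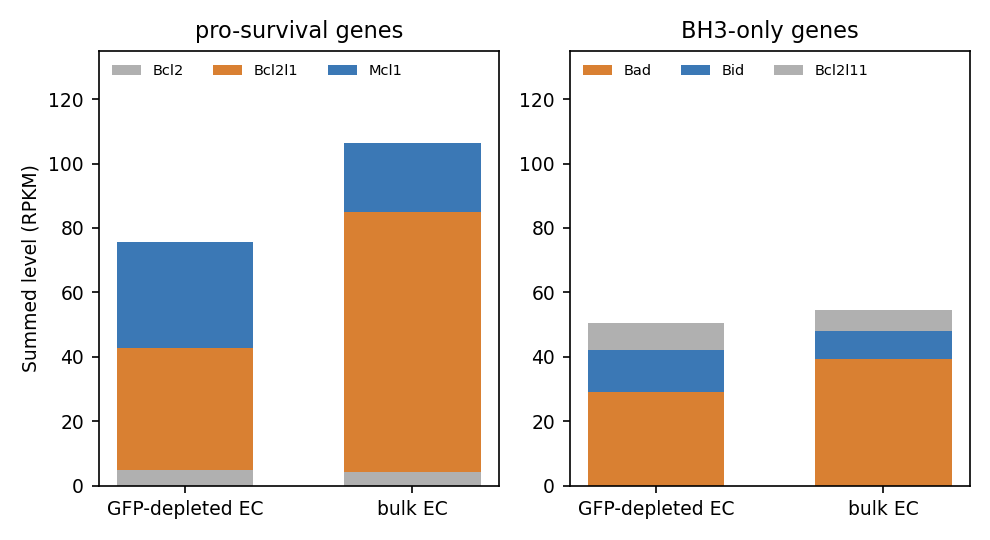
Summed level (RPKM, axis from 0) of the pro-survival genes (left) and the BH3-only genes (right) in each library, stacked by gene. The Bcl2l1 segment is 38.05 RPKM in GFP-depleted EC against 80.6 in bulk EC, and the Bad segment 28.9 and 39.4, whereas the Mcl1 and Bid segments are larger in GFP-depleted EC.

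Because Bcl2l1 and Mcl1 differed in opposite directions, their promoters were set side by side, and 5 motifs were searched on both strands in all windows of the 9 genes. RefSeq lists 3 starts for Bcl2l1 and 1 for Mcl1 (build GRCm38.p6), each with a window of 250 bases before and 50 after the start. The window of the upstream-most Bcl2l1 start and that of Mcl1 both held 1 ETS core CCGGAAG, shown in capitals, and these windows are shown for that reason. ETS factors include well-known regulators of endothelial genes.
Bcl2l1, chr2:152831679-152831978, minus strand: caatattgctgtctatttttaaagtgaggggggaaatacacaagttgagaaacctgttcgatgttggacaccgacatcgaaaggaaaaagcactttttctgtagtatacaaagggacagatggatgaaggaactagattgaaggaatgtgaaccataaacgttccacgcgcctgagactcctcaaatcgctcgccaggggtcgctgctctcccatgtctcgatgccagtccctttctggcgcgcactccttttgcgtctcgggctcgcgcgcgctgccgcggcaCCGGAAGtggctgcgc
Mcl1, chr3:95658471-95658770, plus strand: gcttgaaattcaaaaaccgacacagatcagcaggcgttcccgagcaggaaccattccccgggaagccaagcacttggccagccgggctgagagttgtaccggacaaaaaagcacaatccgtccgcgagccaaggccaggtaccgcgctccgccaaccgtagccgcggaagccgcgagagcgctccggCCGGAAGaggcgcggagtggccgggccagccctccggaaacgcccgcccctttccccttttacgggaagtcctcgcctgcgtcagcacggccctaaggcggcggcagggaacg
The ETS core was found in 8.86% of 32851 promoter windows of the same length, and in 4 of 13 windows of the 9 genes, the others being 1 of Bcl2l11 and that of Mdm2. The GATA core GATAA was in 25.4% of all windows and in 1 of 13 here, that of the most downstream Bcl2l1 start. The STAT site TTCNNNGAA, present in 8.30% of all windows, was in 0 of 13. The GC box GGGCGG was in 8 of 13 windows, against 35.7% of all windows, and the CRE core TGACG in 3 of 13, against 20.8%. In the Mcl1 window both occurred once and in the Bcl2l1 windows neither did. The GC content of the 13 windows was 49.3% to 76.0%, against a median of 52.7% over all windows. The shares of all windows were not matched for base composition, and windows of the same gene were counted separately. A match says only that these letters are in the window, and the absence of one says nothing about the factor.

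Bax, the effector that forms the mitochondrial pore, was the most abundant of the 9 genes. Bax (ENSMUSG00000003873, chromosome 7, 52717072 to 52722185, minus strand) was at 293.4 RPKM in GFP-depleted EC against 305.0 in bulk EC. It ranked 425 and 400 of 12684 genes in these libraries. The ratio was 1.04 toward bulk EC (interval 1.01 to 1.07). Its exons have the highest GC content of the 9 genes, 61.8%, and GC correction turned the direction and placed Bax past the threshold, 1.78-fold higher in GFP-depleted EC. The level of Bax was 7.71 times that of Bcl2l1 in GFP-depleted EC and 3.78 times in bulk EC, and 3.88 and 2.87 times the pro-survival sum.

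Among the BH3-only genes, Bid passed the threshold by a narrow margin and Bad and Bcl2l11 did not pass. Bid, which is cut by caspase-8 and links death receptors to mitochondria (ENSMUSG00000004446, chromosome 6, 120843140 to 120866838, minus strand), was at 13.03 RPKM in GFP-depleted EC against 8.68 in bulk EC. The ratio of 1.502 toward GFP-depleted EC had an interval of 1.38 to 1.63. It fell under the threshold with a pseudocount of 0.3. The GC-corrected ratio (1.49 fold) includes that pseudocount, and the GC trend itself hardly moved Bid (log2 ratio 0.570 before and 0.571 after). Other genes overlap 17.7% of its exonic bases. Bad, which sequesters Bcl-xL unless phosphorylated by survival kinases (ENSMUSG00000024959, chromosome 19, 7016813 to 7026384, plus strand), was at 28.9 RPKM in GFP-depleted EC against 39.4 in bulk EC. The ratio was 1.36 toward bulk EC (interval 1.27 to 1.46). At 59.3% GC its direction turned after GC correction, to 1.19 toward GFP-depleted EC, and other genes overlap 25.8% of its exonic bases. Bcl2l11, the gene of Bim (ENSMUSG00000027381, chromosome 2, 127951774 to 127988283, plus strand), was at 8.56 and 6.45 RPKM, a ratio of 1.33 toward GFP-depleted EC (interval 1.24 to 1.42). The BH3-only sum was 50.5 RPKM in GFP-depleted EC against 54.5 in bulk EC. Bad made up 57.3% of it in GFP-depleted EC against 72.2% in bulk EC, and Bid 25.8% and 15.9%. These shares and sums use levels without GC correction, and that correction turned the direction of Bad. The pro-survival sum was 1.498 times the BH3-only sum in GFP-depleted EC and 1.95 times in bulk EC.

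Trp53 was second to Bax in both libraries. Trp53 (ENSMUSG00000059552, chromosome 11, 69393861 to 69405375, plus strand) was at 108.3 RPKM in GFP-depleted EC against 90.5 in bulk EC, a ratio of 1.20 toward GFP-depleted EC (interval 1.17 to 1.23). A copy on mm9 chromosome 17 (54558922 to 54560561) aligns over 95.6% of the transcript at 87.6% identity, so part of the reads may be shared and the level is uncertain. Mdm2 (ENSMUSG00000020184, chromosome 10, 117125944 to 117147814, minus strand) was at 11.4 RPKM in GFP-depleted EC against 16.2 in bulk EC. The ratio was 1.42 toward bulk EC (interval 1.32 to 1.53) and 1.56 after GC correction, past the threshold. The level of Trp53 was 9.53 times that of Mdm2 in GFP-depleted EC and 5.60 times in bulk EC.

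The order of the 9 genes was similar in both libraries. In GFP-depleted EC it was Bax, Trp53, Bcl2l1, Mcl1, Bad, Bid, Mdm2, Bcl2l11 and Bcl2. In bulk EC it was Bax, Trp53, Bcl2l1, Bad, Mcl1, Mdm2, Bid, Bcl2l11 and Bcl2. Mcl1 and Bad thus changed places, as did Bid and Mdm2. Both orders are of levels without GC correction. The counting intervals of neighbours overlapped for Bid and Mdm2 in GFP-depleted EC (12.1 to 14.1 and 10.6 to 12.2 RPKM) and for no other neighbours in either library.

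**Figure D3:**
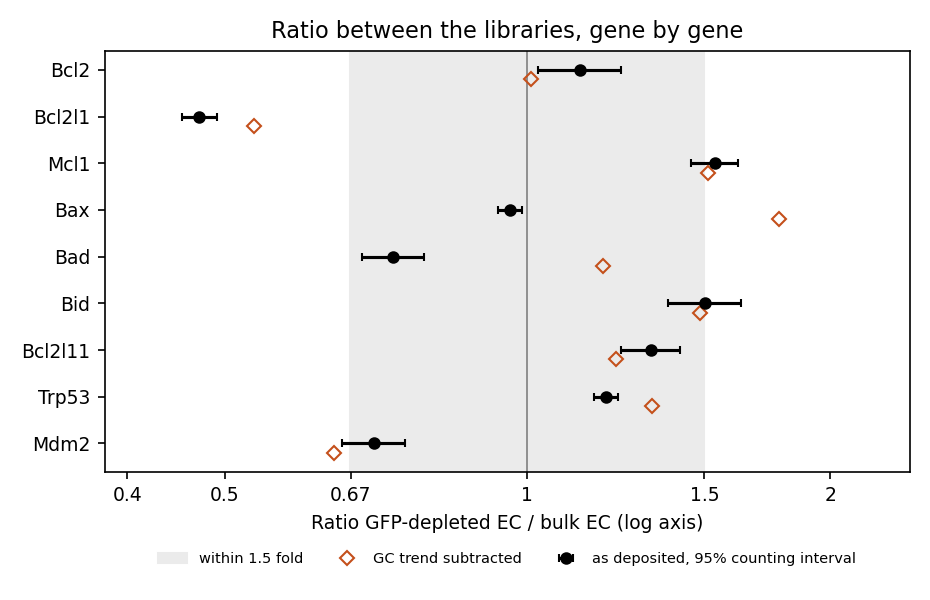
Ratio of GFP-depleted EC to bulk EC (log axis) for each gene as deposited (points, with 95% counting intervals) and after the GC trend was subtracted (open diamonds, with a pseudocount of 0.3), with the range within 1.5 fold shaded. Bcl2l1 lies outside the shaded range both ways, Bax moves from inside it to 1.78, and the intervals of Mcl1, Bid and Mdm2 cross its edge.

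GC content moved with the ratio across the table. Across 10845 protein-coding genes with 1 RPKM or more, Spearman's rho between the log2 ratio and exonic GC was -0.38, given as a description since genes within a library are not independent. The median log2 ratio was 0.20 in the tenth of genes lowest in GC (median 40.0%) and -0.66 in the tenth highest (59.0%). The 9 genes spanned 45.1% (Mdm2) to 61.8% (Bax). With the trend subtracted, Bcl2l1 and Mdm2 were past 1.5 fold toward bulk EC and Mcl1 and Bax toward GFP-depleted EC. GC correction means only this subtraction. With 1 library per group, bias of the method with GC content and differences between the cells that track it cannot be told apart. Ratios after GC correction are therefore a description.

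**Figure D4:**
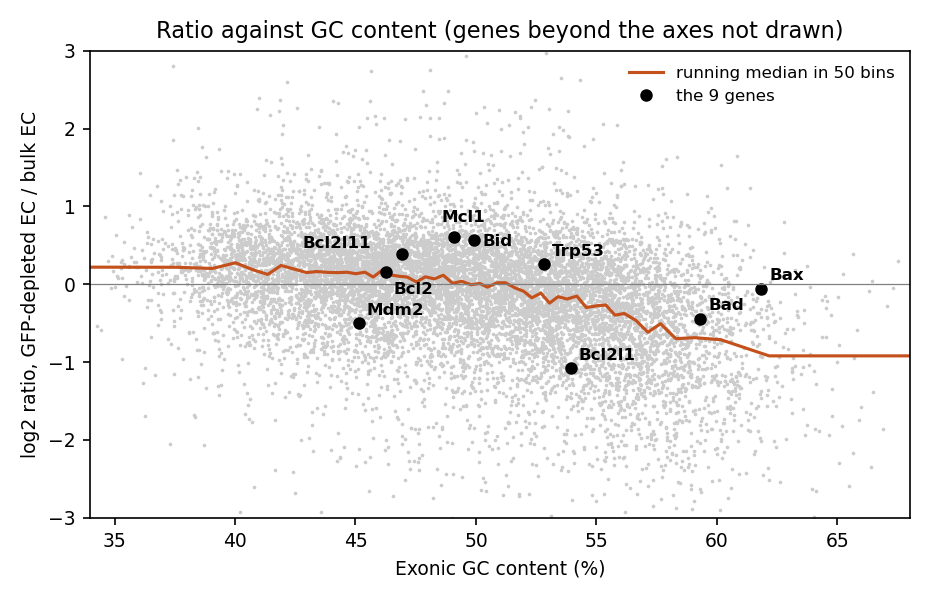
log2 ratio (GFP-depleted EC over bulk EC, after 0.3 was added to both values) against exonic GC content for protein-coding genes of at least 1 RPKM (grey), with the running median (line) and the 9 genes (black). Bcl2l1 (-1.08) and Mdm2 (-0.50) lie below the line, and Bax (-0.06) lies above it although its ratio is near 0.

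Wider lists of the pathway were then compared by the same rule. Over 104 genes in 10 lists, each counted once, 22 (21.2%) were higher in bulk EC against 14 (13.5%) in GFP-depleted EC, close to the shares of all genes. After GC correction the counts were 14 and 15. Among other relatives of Bcl2, Bok, a Bax-like gene, was the most abundant at 92.2 RPKM in GFP-depleted EC against 203.5 in bulk EC (2.21 fold, interval 2.11 to 2.31). The difference fell under 1.5 fold after GC correction (log2 ratio -0.35). Bcl2l12 was 2.45-fold higher in bulk EC (15.2 and 37.3), with 33.4% of its exonic bases under other genes, and Bcl2l13 was nearly equal (7.47 and 7.26). These were 3 of 6 relatives in the table, 2 of them higher in bulk EC. Of 5 further pro-survival relatives, only Bcl2l2 (Bcl-w) had an entry, at 0.40 and 0.75 RPKM from about 18 and 250 reads, past 1.5 fold but under it with a pseudocount of 0.3. Of 9 other BH3-only and BH3-bearing genes, 7 had an entry. Becn1, the autophagy gene Beclin 1, was 1.72-fold higher in bulk EC (34.3 and 59.0), with 43.9% of its exonic bases under other genes, and the hypoxia target Bnip3 was 1.89-fold higher in GFP-depleted EC (11.4 and 6.03). Bnip3l, which acts in mitochondrial removal, was the most abundant of them (52.7 and 44.1), and Bik was at 10.6 and 11.6. Bmf (1.37 and 1.25) and Pmaip1, the gene of Noxa (1.24 and 1.37), were low in both libraries. The pro-apoptotic genes Bbc3 and Hrk were not analysed here.

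**Figure D5:**
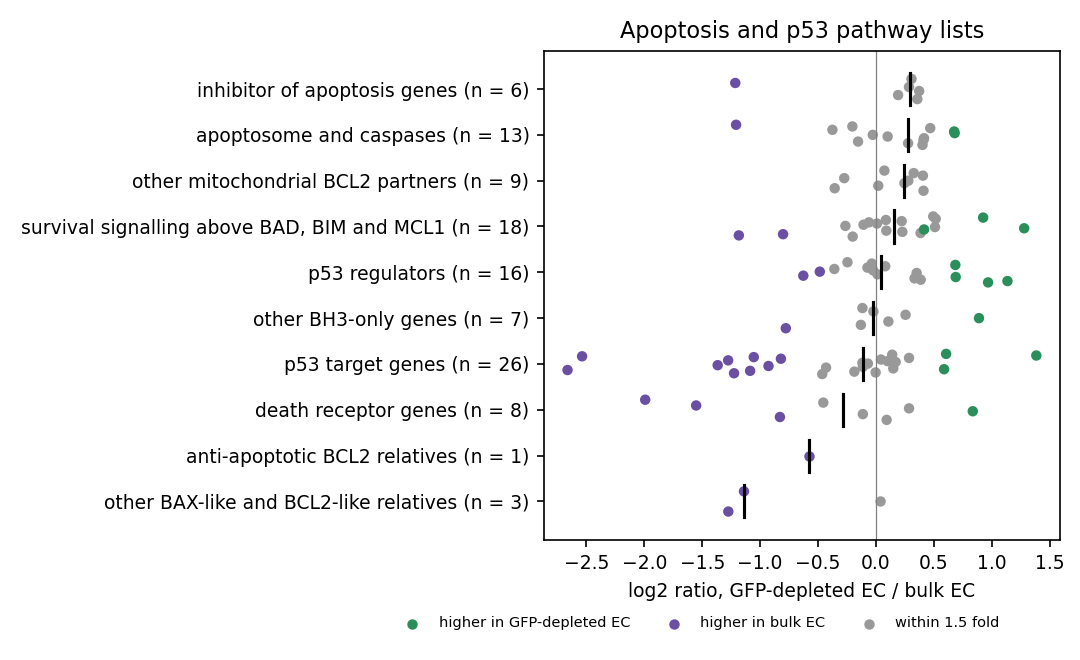
log2 ratio (GFP-depleted EC over bulk EC, after 0.3 was added to both values) of each gene in the 10 pathway lists, colored by the library in which the plain ratio was above 1.5, with the median of each list as a black bar. Medians range from -1.14 for the BAX-like and BCL2-like relatives (3 genes) to 0.30 for the inhibitors of apoptosis (6 genes). After GC correction, not drawn, the medians of these lists were -0.35 and 0.10.

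Downstream of the mitochondria, most genes stayed within 1.5 fold, as did 7748 of the 12684 genes of the whole table. Of 13 apoptosome and caspase genes (of 14 listed), 10 did so, 1 was higher in bulk EC against 2 in GFP-depleted EC, and the list had a median log2 ratio of 0.28 against -0.02 for all genes. Casp9, the initiator caspase of the apoptosome, was 1.63-fold higher in GFP-depleted EC (9.32 and 5.71, interval 1.5 to 1.77), and Dffa, the inhibitor of the apoptotic nuclease, 1.61-fold (21.4 and 13.3). Htra2, a mitochondrial protease, was 2.34-fold higher in bulk EC (14.5 and 33.8), a difference that GC correction took under the threshold (log2 ratio -0.52), and 36.1% of its exonic bases lie under other genes. Casp6 was the most abundant (206.9 and 155.1), and Diablo, which frees caspases from their inhibitors, was at 69.1 and 49.8. Of 6 inhibitor of apoptosis genes (of 7 listed), Naip2 alone passed, at 0.60 and 1.78 (2.99-fold higher in bulk EC, from about 42 and 941 reads), and reads may be shared with the near-identical genes of its family. Birc5 (survivin), which also acts in mitosis, was the most abundant at 574.7 and 443.7, with Birc2 (12.3 and 9.55) and the caspase inhibitor Xiap (10.2 and 8.16). Of 8 death receptor genes (of 10 listed), 3 (37.5%) were higher in bulk EC against 1 (12.5%) in GFP-depleted EC. The TNF receptor Tnfrsf1a (11.2 and 33.3, 2.98 fold), its adaptor Tradd (0.83 and 4.20, 5.05 fold) and Fadd, the adaptor of caspase-8 (2.43 and 4.55, 1.87 fold), were higher in bulk EC. Ripk1, the kinase on the same receptor, was 1.89-fold higher in GFP-depleted EC (4.15 and 2.19), with 38.3% of its exonic bases under other genes. Casp8 (32.3 and 32.9) was nearly equal.

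On the side of p53, regulators and targets were counted separately. Of 16 regulators (of 20 listed), 2 (12.5%) were higher in bulk EC against 4 (25.0%) in GFP-depleted EC. The latter were the DNA damage kinases Atm (4.46 and 2.13, 2.09 fold, interval 1.92 to 2.28) and Atr (3.92 and 1.62, 2.42 fold, 2.18 to 2.68), the acetyltransferase Ep300 (3.51 and 2.06, 1.70 fold) and Trp53bp1 (14.5 and 8.92, 1.63 fold). All 4 remained past 1.5 fold after GC correction except Trp53bp1 (log2 ratio 0.57). The 2 higher in bulk EC, named after their values were seen, were Hipk2 (1.96 and 3.19) and Ppm1d (1.05 and 1.59). Hipk2 was under the threshold after GC correction (log2 ratio -0.48). Ppm1d was already under it with a pseudocount of 0.3 (log2 ratio -0.485), and GC correction moved it to -0.51. Mdm4, the partner of Mdm2, was at 9.40 and 7.30, and the ubiquitin ligase gene Rchy1 was the most abundant (81.3 and 104.3). Of 26 target genes (of 30 listed), 9 (34.6%) were higher in bulk EC against 3 (11.5%) in GFP-depleted EC. The shares over all genes were 23.6% and 15.3%. The targets had a median log2 ratio of -0.12, and -0.23 after GC correction, against -0.02 and 0.01 over all genes. Dcxr, a carbonyl reductase, was at 0.30 and 3.51 (11.6-fold higher in bulk EC, interval 4.99 to 36.3, from about 5 and 440 reads). Trp53i13 was 7.07-fold (1.14 and 8.03) and Phlda3, an inhibitor of Akt, 2.76-fold higher in bulk EC (2.54 and 7.02), the latter under the threshold after GC correction (log2 ratio -0.48). GC correction also reduced Dcxr (log2 ratio -2.66 before and -1.97 after) and Trp53i13 (-2.54 and -1.62), both still past the threshold. Trp53i13 had about 36 and 1902 reads, and 15.2% of its exonic bases lie under other genes. The cell cycle inhibitor Cdkn1a (p21), chosen after its values were seen, was 2.15-fold higher in bulk EC (15.6 and 33.5). Trp53inp1, a p53 cofactor, was 3.06-fold higher in GFP-depleted EC (3.26 and 1.06, interval 2.68 to 3.51). Rps27l was the most abundant target (886.5 and 826.9). Targets therefore did not share a direction, and p53 is not the sole regulator of any of these genes. Immediate early genes, which respond to handling and of which 11 of 17 were higher in bulk EC, differed in the same direction as Cdkn1a, and their part was not tested. Their median log2 ratio was -0.93, and -0.38 after GC correction, and Btg2 is in both that list and the targets.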

How the data were processed

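Per the methods and labels of the study, RNA of sorted cells was amplified with a SMART cDNA kit, sequenced in 1 HiSeq lane and aligned to mm9. BWA 0.5.7 and Cuffdiff appear in the submitters' processing notes, with no role. Which annotation release, counting method and strand setting were used was not given in the sources used here. RPKM values, 1 per gene and library, were deposited in a single table with a fold column (bulk EC over GFP-depleted EC), which was not used. No mean of the 2 values was under 0.50, so the filter at 0.3 RPKM removed no gene.

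Of 12899 entries, 215 repeats of a symbol were dropped. Following the study, a plain ratio above 1.5 counted as higher. Exon length, GC content and overlap came from GENCODE M1 (mm9), whose identifiers matched 12341 entries, 98.1% of them at the same place (ends within 50000 bases). In features under 150 bases, 98.9% of the values above 0 in the GFP-depleted library and 94.7% in the bulk library lay within 0.15 of a whole multiple of 1 covered base, where chance gives 30%. In longer features of 1 exon they clustered at multiples of 100 bases, taken as the read length. Read numbers per gene also rest on the GENCODE lengths and are approximate. The GC trend was a running median in 50 bins. Copies were sought with minimap2 2.31, keeping alignments over at least 20% of the transcript. Sequences came from RefSeq and GENCODE. Python 3.11.15, numpy 2.4.6, pandas 2.3.3, scipy 1.17.1 and matplotlib 3.10.9 were used, and the steps were tested on simulated data.

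The genes, the 10 pathway lists and the 6 marker lists were chosen with earlier results of these data known. All members in the table are named, as are the 3 genes nearest to Bcl2l1. From each pathway list the rule names the most abundant gene, at whatever level, and the 4 with the largest absolute log2 ratio among genes that reach 1 RPKM in either library. Marker lists are given as counts and sums, and their genes are named only where a sum, a gate or a value of 0 turns on them. Bmf, Pmaip1, Casp8, Mdm4, Akt1, Hipk2, Ppm1d, Gsk3a and Cdkn1a fall outside this rule and were named after their values were seen. Copies elsewhere in the genome were sought for the 9 genes only. The values of 1 pathway gene that the rule names are not reported here. Alternatives were another fold threshold, pseudocount, filter, scaling, treatment of repeats, GC correction and the whole counting interval.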

Additional observations from a re-analysis of the deposited data

How the results depend on the processing

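No paired analysis was possible because there was a single library in each group. Bcl2l1 was past the threshold toward bulk EC in all 10 settings run. Mcl1 and Bid were not past it at 2 fold or by the whole counting interval (0 of the 9 genes toward GFP-depleted EC), and Mcl1 alone passed with a pseudocount of 0.3 or of 1 (1 gene). Subtracting the GC trend gave 2 genes toward bulk EC (Bcl2l1 and Mdm2) and 2 toward GFP-depleted EC (Mcl1 and Bax in place of Bid). Bid dropped out there through the pseudocount of 0.3 that this setting includes, not through the trend. Of 45 recomputed log2 ratios of the 9 genes, 11 moved by more than the counting error, and only Bax and Bad changed sign, both after GC correction. At 2 fold, the counts over all genes were 1683 toward bulk EC and 839 toward GFP-depleted EC, and 1053 were higher in GFP-depleted EC by the whole interval. Quantile scaling gave 2558 and 2476, against 2997 and 1939 as reported, so the split between directions depends on scaling. For the pathway genes the counts were 14 and 4 at 2 fold, and 14 toward bulk EC after GC correction. The stricter settings pass fewer genes by construction. The filter at 0.3 RPKM and no filter gave the same counts. Neither depth nor these settings address the spread between embryos, which 1 library per group does not show.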

Other observations

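Genes of the mitochondrial outer membrane and of its dynamics, on which Bcl2 proteins act, stayed within 1.5 fold. Of 9 such genes, 0 passed it in either direction, against 23.6% (bulk EC) and 15.3% (GFP-depleted EC) of all genes. Their median log2 ratio was 0.25 (0.13 after GC correction), against -0.02 (0.01) over all genes. The channel gene Vdac2, a known partner of Bak, was the most abundant at 426.0 RPKM in GFP-depleted EC against 339.8 in bulk EC. Vdac1 was at 189.0 and 142.7, the fission genes Dnm1l at 46.4 and 34.8 and Fis1 at 215.4 and 275.9.

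Among 18 genes of the survival signals that act on Bad, Bim and Mcl1, 2 were higher in bulk EC against 3 in GFP-depleted EC. These shares, 11.1% and 16.7%, compare with 23.6% and 15.3% of all genes. The median log2 ratio of the list was 0.16, or 0.34 with the GC trend subtracted. The kinase gene Akt2 (2.97 and 7.13, 2.4 fold, interval 2.14 to 2.70) was higher in bulk EC, while Akt1 was at 31.2 and 35.9. Gsk3b, a kinase that marks Mcl1 for degradation, was 2.48-fold higher in GFP-depleted EC (19.1 and 7.70, interval 2.38 to 2.59). Usp9x, which removes ubiquitin from Mcl1, was 2.0-fold higher there (5.49 and 2.75). The third gene, Gsk3a, was at 0.85 and 0.56 from about 28 and 140 reads, and its interval of 0.96 to 2.26 included 1. Ywhaz, a 14-3-3 gene whose protein family holds phosphorylated Bad, was the most abundant (643.9 and 457.1).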
